A study of Gallus gallus with 14 samples.

Results

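Long non-coding RNAs (lncRNAs) of the uterovaginal junction (UVJ) were compared between JH hens with a long and JH hens with a short duration of fertility (DF). The comparison used 8 of the 14 hens of the series. The long-DF JH hens were JH14, JH25, JH95 and JH104, and the short-DF JH hens were JH49, JH68, JH109 and JH130. A lncRNA was tested when its FPKM (fragments scaled by transcript length and library size) was at least 0.1 in at least 4 of these 8 hens, which held for 7004 of the 9977 lncRNAs in the table, or 70.2%.

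All hens were adult egg-laying chickens (Gallus gallus) of 1 farm, kept in individual cages on the same diet and light and inseminated with pooled semen of roosters. The study placed a hen in the long-DF group when its fertile period or its number of fertile eggs after an insemination was high, and in the short-DF group when it was low, so that the groups differ in the trait itself and not in a treatment. The other 6 hens carry the prefix JF, 3 in each DF group. What the prefixes JH and JF stand for is not given in the sources used here. Each library came from the UVJ of 1 hen, with no pooling, and no genotype or strain was labelled.

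The UVJ is the short band of the hen's oviduct between the shell gland and the vagina. Its folds hold the sperm storage tubules, blind epithelial glands in which sperm survive after insemination and from which they are released toward the site of fertilization. LncRNAs are transcripts without a long open reading frame, and some of them act on the transcription, splicing or stability of other RNAs, often of genes beside them. They are named here by their NONCODE identifier when they were already catalogued (known lncRNAs) and by their assembly identifier, which begins with MSTRG, when the study assembled them (unknown lncRNAs). LncRNAs whose spans overlap on the genome, on either strand, are called a locus, and coordinates are those of Galgal4. A locus can thus hold separate transcripts, also of opposite strands, as well as versions of the same transcript. The table holds lncRNAs only, so no marker gene of the UVJ or of another tissue could be read.

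The tested lncRNAs were 4942 known and 2062 unknown ones, and they took 96.0% of the fragments counted on lncRNAs in the JH hens. Most were rare, with a median over lncRNAs of 4.5 fragments per hen, and 2793 of them had a mean under 3 fragments. Of the tested lncRNAs, 4212 reached the FPKM minimum in all 8 hens and 627 in exactly 4. The median of the mean FPKM was 0.207 for those 627 and 0.143 for the 701 lncRNAs just outside, which reached it in 3 hens. The FPKM minimum was met in all 4 long-DF hens and no short-DF hen by 14 lncRNAs, and in all 4 short-DF hens and no long-DF hen by 5. The rule of at least 4 hens admits such a lncRNA only when every hen of 1 group has it, so its DF groups had to differ. Over the whole table, 477 lncRNAs had no fragment in any JH hen.

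Between 213304 and 281892 fragments per JH hen fell on lncRNAs, and JH68 had the most. A count of 0 allows up to 3 fragments, and this limit covers counting error only. The long-DF JH hens had 7035 ± 151 lncRNAs with an FPKM above 0 (SD, n = 4) and the short-DF JH hens 6820 ± 156 (SD, n = 4). The difference of 215 lncRNAs was within the spread of the hens by a two-sided exact permutation test over 70 splits (p = 0.114), in which 0.0286 is the smallest p possible. After thinning every hen to 213304 fragments the difference was 256 lncRNAs (exact permutation p = 0.0857). The 10 most abundant lncRNAs took 20.4% ± 0.92 of the lncRNA fragments in the long-DF and 22.6% ± 1.08 in the short-DF JH hens (SD, n = 4 each, exact permutation p = 0.0571).

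The DF groups did not form separate sets of hens. Of the variance of log2 values over the 7004 lncRNAs, 14.1% lay between the DF groups. With so few hens, a share of this size is also expected without any difference between the groups. The first principal component held 19.6% of the variance and set the short-DF hens JH109 and JH130 apart at one end, while the long-DF hen JH25 and the short-DF hen JH49 lay together at the other. Pearson correlations across lncRNAs ran from 0.730 to 0.794 for the 16 pairs of hens from different DF groups, from 0.732 to 0.776 for the 6 long-DF pairs and from 0.735 to 0.790 for the 6 short-DF pairs. A hen was thus about as close to hens of the other DF group as to those of its own.

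**Figure D1:**
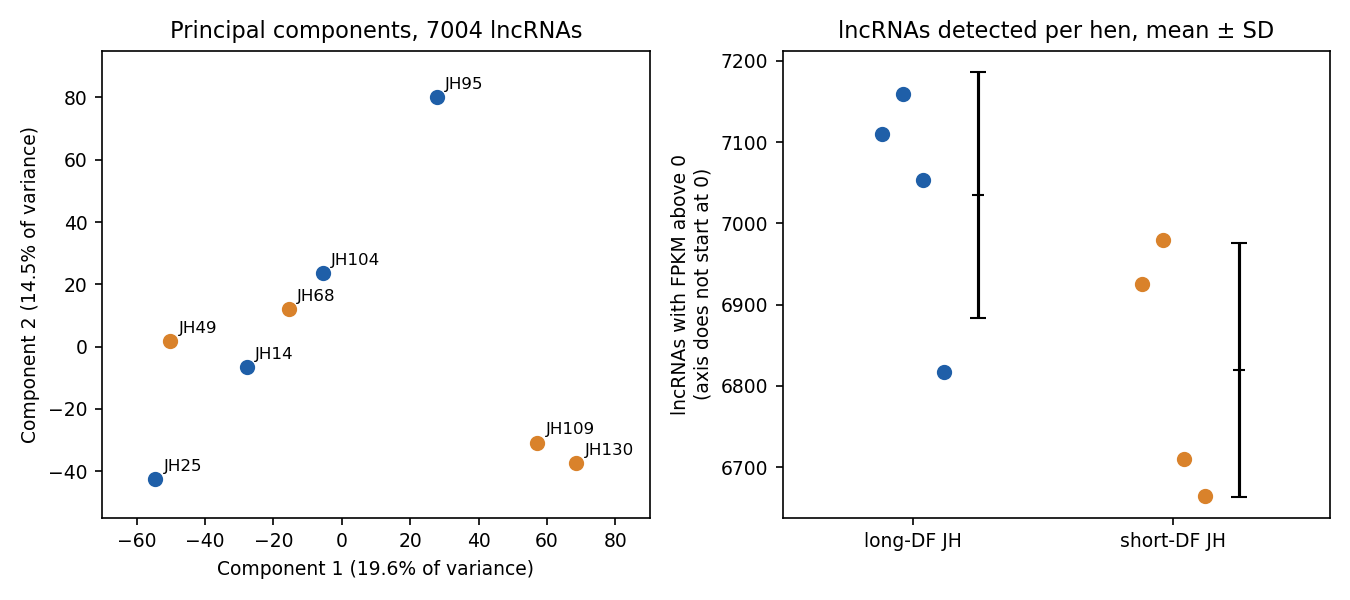
Left, scores of the 8 JH hens (long-DF blue, short-DF orange) on the first and second principal components of log2 scaled counts of 7004 lncRNAs. Right, lncRNAs with an FPKM above 0 in each hen, with the mean ± SD beside the points; JH104 lies below JH49 and JH68, so the groups overlap.

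A single lncRNA, NONGGAT008832.2, separated the long-DF from the short-DF JH hens past all 3 thresholds of the study, namely 0.05 for the adjusted p, 0.01 for the unadjusted p and a log2 fold change of 2 in size. That is 0.0143% of the lncRNAs tested. It is one of the 14 that met the minimum through the long-DF hens alone, and it was not testable when all 8 hens had to meet it. At an unadjusted p under 0.05 there were 243 lncRNAs, or 3.47%, of which 147 were higher (2.1%) and 96 lower (1.37%) in the long-DF group. With no difference at all, a share of about 0.05 would be expected at that p, so the 243 are not a set shown to differ. Scaled for library size, the counts of every long-DF hen lay above or below those of every short-DF hen for 210 lncRNAs, or 3%, with 105 in each direction (1.5% each). These include the 14 and the 5 lncRNAs that had to differ, of which 13 and 5 are also among the 243. For values without ties, a share of 0.0286 of the 70 splits parts the hens this way, so 3% is near the level without a difference. The median log2 fold change over all lncRNAs tested was -0.01. The biological coefficient of variation between hens of a group was 0.482 in edgeR's fit. Among the 243 lncRNAs, 22 had no hen above 3 fragments, 74 differed by less than 1 and 76 by at least 2 on the log2 scale.

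**Figure D2:**
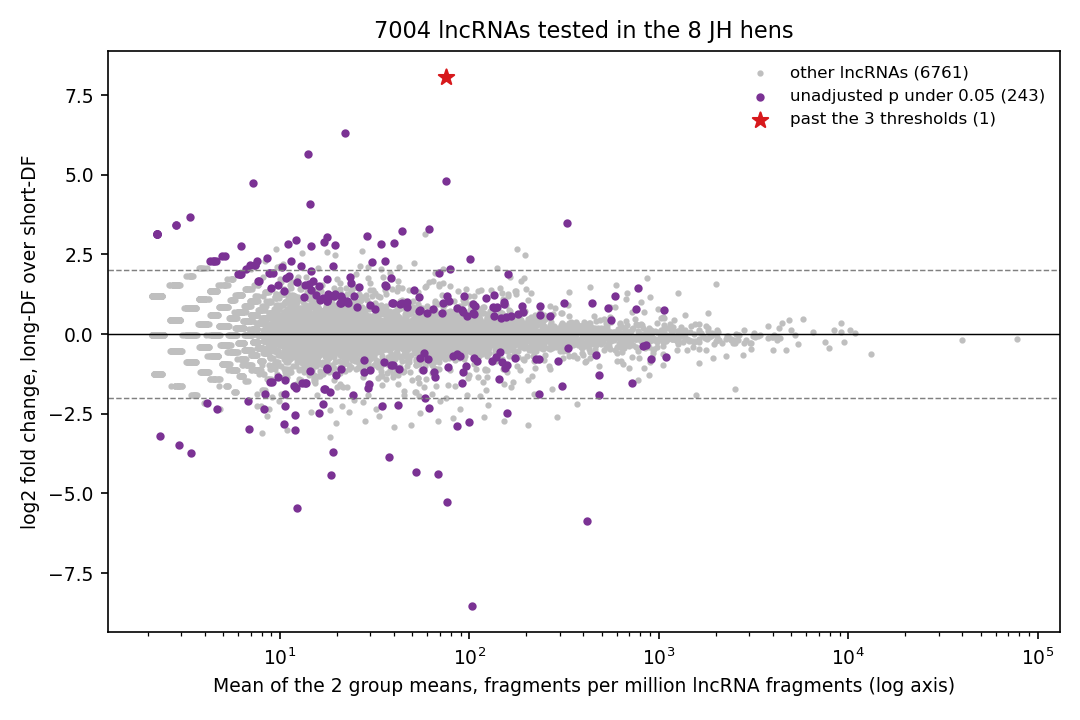
Each point is 1 of 7004 lncRNAs, with its mean level on a log axis and its log2 fold change of long-DF over short-DF JH hens; dashed lines mark -2 and 2. The 243 lncRNAs with an unadjusted p under 0.05 (purple) lie on both sides of 0, and 1 lncRNA (red star, NONGGAT008832.2) passed all 3 thresholds.

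NONGGAT008832.2 is a known lncRNA of 925 nucleotides at chr8:7085966-7091168, of the bidirectional type in the study's lists. It had 35, 37, 27 and 36 fragments in the long-DF hens JH14, JH25, JH95 and JH104 and 0 in each of the 4 short-DF JH hens. With no fragment in the short-DF hens, it entered the test only because every long-DF hen had it. Its FPKM was 5.38 ± 0.80 in long-DF hens (SD, n = 4), and against the limit of 3 fragments per hen it was at least 10.8-fold higher (edgeR quasi-likelihood test with Benjamini-Hochberg adjustment, adjusted p = 0.0306). Without any of the hens other than JH130 the call was lost, at adjusted p between 0.0583 (without JH109) and 0.266 (without JH104). A fit of all 14 hens, still comparing only the JH groups, gave an adjusted p of 0.990.

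NONGGAT008831.2, at chr8:7085748-7100072, covers the whole of NONGGAT008832.2. It had 18, 16, 19 and 8 fragments in long-DF JH hens and 26, 24, 24 and 17 in short-DF JH hens. Its counts lay somewhat lower in long-DF hens, with JH130 inside the long-DF range (log2 fold change -0.63, adjusted p = 0.989). The sum of both lncRNAs was 53, 53, 46 and 44 fragments in long-DF hens and 26, 24, 24 and 17 in short-DF hens. So the sum was about a factor of 2 higher in long-DF JH hens, with no overlap between the groups (log2 fold change 1.03, SE 0.19). That difference rests on NONGGAT008832.2, which entered the test through the long-DF hens alone, so the sum adds no separate support. Among the 5280 loci tested this sum did not pass (adjusted p = 0.531).

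NONGGAT002534.2, at chr14:852587-859689, came next among the lncRNAs that were higher in long-DF hens. It had 15, 15, 17 and 16 fragments in long-DF JH hens and 3, 2, 2 and 1 in short-DF JH hens. The ratio of the summed counts, scaled for library size, was 7.65, with a 95% exact interval of 3.65 to 18.5 that covers counting error only. Its adjusted p of 0.0637 missed the threshold, and without one of the 8 hens it lay between 0.10 and 0.291. The study lists it as sense to an exon of an annotated gene, so fragments of that gene may count on it, which was not tested.

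NONGGAT000404.2, at chr1:50732010-50733536, is also listed as sense to an exon and is alone at its locus. It had 11, 11, 10 and 8 fragments in the long-DF JH hens and 0 in each short-DF JH hen. At this depth that is at least a 3.19-fold difference, with an adjusted p of 0.0783. MSTRG.18356.18, an intergenic lncRNA of 4 exons at chr4:74826349-74858679, had 7, 5, 6 and 7 fragments in long-DF JH hens and 0 in all short-DF JH hens. It was at least 2.03-fold higher (adjusted p = 0.182). Both were at 0 in the short-DF JH hens and so entered the test only because every long-DF hen had them, at counts close to the limit of detection.

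Differences of smaller size came from better covered lncRNAs. MSTRG.10701.1 lies at chr2:100695266-100704007 on the plus strand, antisense to an exon of EMILIN2, which encodes a glycoprotein of elastic fibres in the extracellular matrix. It had 56, 63, 58 and 45 fragments in long-DF and 29, 37, 25 and 25 in short-DF JH hens. Without overlap, the log2 fold change was 0.90 (SE 0.18) with an adjusted p of 0.747. Whether the counting used the strand of the reads is not stated, and without it reads of EMILIN2 and of this lncRNA cannot be told apart.

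NONGGAT008555.2 (chr7:18412733-18414124) had 32, 32, 26 and 28 fragments in long-DF and 12, 20, 12 and 7 in short-DF JH hens, a log2 fold change of 1.19 (SE 0.27, adjusted p = 0.989). NONGGAT007791.2 (chr5:45268320-45270727) had 14, 25, 17 and 12 against 7, 9, 6 and 3 fragments, a log2 fold change of 1.39 (SE 0.34, adjusted p = 0.989). In both, the highest short-DF hen stayed below the lowest long-DF hen. The remaining members of the 12 with the smallest p in this direction were NONGGAT003289.2, NONGGAT016323.1, NONGGAT014804.1, NONGGAT000538.2 and NONGGAT007796.2, with at most 14 fragments in any JH hen. Of these, NONGGAT003289.2, NONGGAT016323.1 and NONGGAT000538.2 met the FPKM minimum through the long-DF hens alone, so their direction was set by the filter.

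No lncRNA was called as lower in long-DF JH hens, and the smallest adjusted p in that direction was 0.117. It belonged to NONGGAT007928.2 at chr5:58022531-58023695, an intergenic lncRNA in the study's lists. It had 0 fragments in each long-DF JH hen and 48, 84, 17 and 39 in the short-DF JH hens JH49, JH68, JH109 and JH130. Against 3 fragments per hen it was at least 15.5-fold lower in long-DF hens. It met the FPKM minimum through the short-DF hens alone.

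NONGGAT003266.2 (chr18:4299372-4306889) is the only lncRNA of its locus, and the study lists it as antisense within an intron. It had 5, 5, 4 and 4 fragments in long-DF and 13, 21, 25 and 29 in short-DF JH hens. The FPKM was 0.56 ± 0.09 against 2.85 ± 0.92 (SD, n = 4 each), a log2 fold change of -2.33 (SE 0.35, adjusted p = 0.140). Every short-DF hen had more than 2 times the fragments of any long-DF hen. The fit of all 14 hens, again comparing only the JH groups, called NONGGAT003266.2 (adjusted p = 0.0236).

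NONGGAT002535.2 (chr14:853146-855308) had 0 fragments in every long-DF and 4, 4, 7 and 6 in short-DF JH hens, at least 1.84-fold lower in long-DF hens (adjusted p = 0.532), and it too met the minimum through the short-DF hens alone. NONGGAT006949.2 (chr4:39273291-39274867) had 1 fragment in each long-DF hen and 12, 30, 22 and 1 in short-DF hens. The short-DF hen JH130 thus had the long-DF value, and without it the lncRNA passed the thresholds (adjusted p = 0.0304 against 0.989 with it).

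Among abundant lncRNAs that were lower in long-DF JH hens, NONGGAT005489.2 (chr27:1366560-1367226) had 54, 52, 48 and 35 fragments against 80, 118, 71 and 64 (log2 fold change -0.84, SE 0.20, adjusted p = 0.989). NONGGAT005587.2 (chr28:923169-925617) had 50, 44, 36 and 27 fragments against 66, 71, 55 and 65 (log2 fold change -0.77, SE 0.21, adjusted p = 0.989). MSTRG.8067.1, an intergenic lncRNA at chr18:3449901-3453712, had 18, 22, 25 and 19 fragments against 32, 46, 34 and 36 (log2 fold change -0.85, SE 0.21, adjusted p = 0.989). In these the DF groups did not overlap, although none passed the adjusted test. The other members of the 12 were NONGGAT006794.2, MSTRG.24865.5, MSTRG.584.2, MSTRG.2.1 and NONGGAT000953.2. NONGGAT006794.2 had at most 2 fragments in any JH hen, so no fold change is given, and it met the FPKM minimum through the short-DF hens alone.

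**Figure D3:**
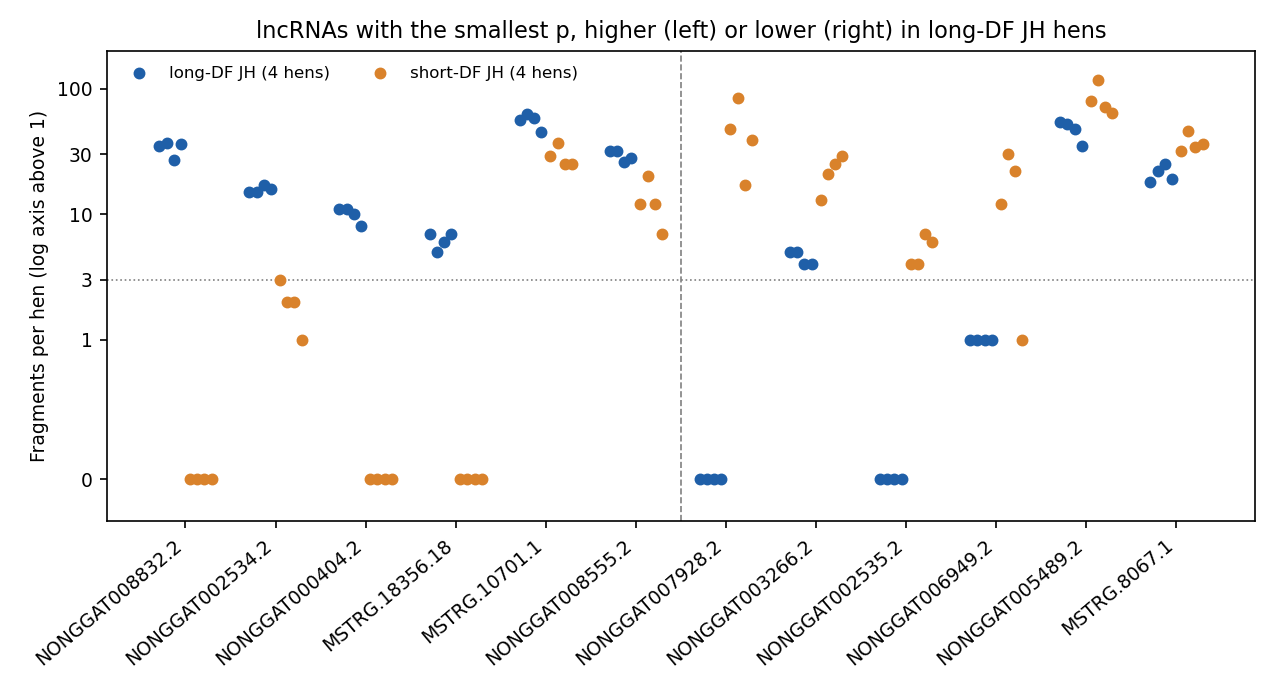
Fragments in each JH hen (log axis above 1) for the 6 lncRNAs with the smallest p in each direction, long-DF hens in blue and short-DF hens in orange; the dotted line marks 3 fragments. NONGGAT008832.2 has 27 to 37 fragments in long-DF hens and 0 in short-DF hens, and NONGGAT006949.2 has 1 fragment in 1 short-DF hen.

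Several of these lncRNAs overlap others that moved the opposite way. At chr5:58022531-58023695, NONGGAT007926.2 has the same start, end and length of 1104 nucleotides as NONGGAT007928.2. It had 47, 108, 47 and 0 fragments in the long-DF and 0 in every short-DF JH hen, the reverse of NONGGAT007928.2. The long-DF hen JH104 had its fragments on NONGGAT007930.2, 86 of them, and on NONGGAT007929.2. Summed over the 5 lncRNAs, the locus had 47, 108, 47 and 94 fragments in long-DF and 48, 84, 40 and 39 in short-DF hens. The groups overlapped and the sum did not differ beyond their spread (log2 fold change 0.45, SE 0.32, adjusted p = 0.988).

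The pair NONGGAT006948.2 and NONGGAT006949.2 also shares its start and end. NONGGAT006948.2 had 19, 27, 20 and 27 fragments in long-DF and 0, 0, 0 and 22 in short-DF JH hens, so that each hen had nearly all of its fragments on one of the pair. The sums were 20, 28, 21 and 28 against 12, 30, 22 and 23 (log2 fold change 0.10, SE 0.28, adjusted p = 0.988). On chromosome 14, the 6 lncRNAs that overlap NONGGAT002534.2 and NONGGAT002535.2 summed to 69, 108, 60 and 58 fragments in long-DF and 106, 107, 78 and 64 in short-DF JH hens (log2 fold change -0.34, SE 0.22, adjusted p = 0.988). That locus thus held 1 lncRNA higher and 2 lower in long-DF hens at an unadjusted p under 0.05, and no difference of the sum beyond the spread of the hens. The 12 lncRNAs at the locus of MSTRG.18356.18 summed to between 195 and 309 fragments in the long-DF group and between 180 and 280 in the short-DF group of JH hens (log2 fold change 0.00, SE 0.20). How fragments shared by overlapping lncRNAs were assigned is not given in the sources used here, so counts of overlapping lncRNAs are uncertain one by one.

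**Figure D4:**
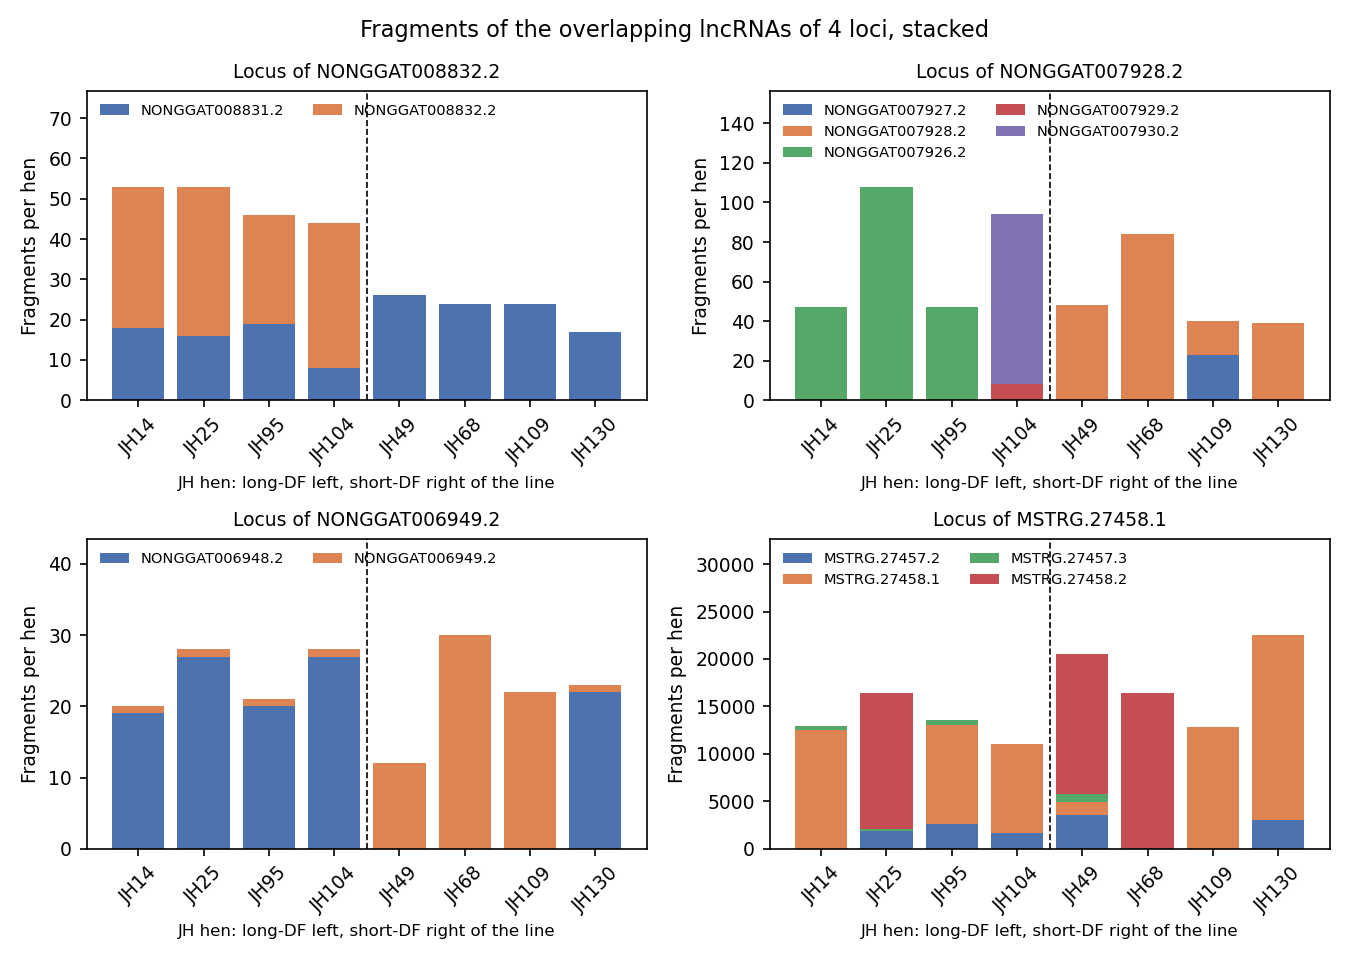
Fragments per JH hen on the overlapping lncRNAs of 4 loci, stacked by lncRNA, with long-DF hens left and short-DF hens right of the dashed line. At the locus of NONGGAT007928.2 the 2 groups have their fragments on different lncRNAs while the bars have similar heights; at the locus of NONGGAT008832.2 the long-DF bars reach 44 to 53 and the short-DF bars 17 to 26.

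A pattern of presence in some hens and absence in others was seen across the table. A lncRNA with at least 20 fragments in at least 2 JH hens and at most 1 fragment in at least 2 was called on-off, and 160 of those tested were (2.28%). Of the 160, 148 shared their locus with other lncRNAs (92.5%), against 3152 of all 7004 tested (45%). Summed over the locus, the counts were still on-off at 6 of their loci and no longer so at 98. At 58 of these loci the sum differed by less than 4 times between the highest and the lowest hen. Each JH hen had between 68 and 86 of the on-off lncRNAs at 20 fragments or more. The DF groups did not overlap in scaled counts for 4 of the 160, a share near the 3% of all lncRNAs tested. These 4 are named here after their values were seen. NONGGAT008832.2 was higher in long-DF hens and NONGGAT007928.2, NONGGAT006949.2 and NONGGAT006737.2 were lower. For NONGGAT006949.2 and NONGGAT006737.2 this holds only after the scaling, since their raw counts tie or cross. NONGGAT006949.2 had 1 fragment in every long-DF hen and in the short-DF hen JH130. NONGGAT006737.2 had 0, 75, 0 and 6 fragments in the long-DF hens and from 73 to 145 in the short-DF hens (adjusted p = 0.989). At 20 or more in every hen of one DF group and at most 1 in every hen of the other, as the on-off rule has it, there was only NONGGAT008832.2, while NONGGAT007928.2 missed this by the 17 fragments of JH109.

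When counts were summed over each locus, 219 of 5280 loci had an unadjusted p under 0.05 (4.15%), 114 of them higher and 105 lower, and none passed the thresholds. The smallest adjusted p was 0.0567, for NONGGAT000404.2, which is alone at its locus. Of the 243 single lncRNAs at p under 0.05, 132 shared a locus with others, and the sum of the locus had a p under 0.05 in the same direction for 39 of them. At 6 loci, lncRNAs went in both directions at p under 0.05.

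The most abundant lncRNAs differed little between the DF groups or differed between hens of a group. MSTRG.2200.16, an intergenic lncRNA on chromosome 1, led the table with 14225 to 21118 fragments in the long-DF group and 15252 to 25392 in the short-DF group (log2 fold change -0.14, SE 0.14). NONGGAT007919.2 on chromosome 5 had 897 to 1347 against 910 to 1714 fragments (log2 fold change -0.31, SE 0.17). MSTRG.27458.1 and MSTRG.27458.2 overlap on an unplaced sequence. MSTRG.27458.1 had 12522, 0, 10475 and 9340 fragments in long-DF and 1363, 0, 12810 and 19469 in short-DF JH hens. MSTRG.27458.2 was counted where MSTRG.27458.1 was low or missing, with 14320 fragments in JH25, 14767 in JH49, 16407 in JH68 and 0 in the other 5. This switch crossed the DF groups. The locus also holds MSTRG.27457.2 and MSTRG.27457.3 on the opposite strand, the first with up to 3586 fragments in a JH hen (JH49). Summed over these 4 lncRNAs of both strands, the locus ran from 11027 to 16413 fragments in the long-DF group. In the short-DF group it ran from 12819 to 22513 (log2 fold change -0.52, SE 0.20, adjusted p = 0.988).

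A few lncRNAs were high in 1 hen alone among the JH hens, defined as at least 30 fragments and at least 8 times the scaled counts of the next JH hen. There were 13 (0.186%), in 7 of the 8 hens. MSTRG.26631.1 had 3089 fragments in the short-DF hen JH68 and 220 to 330 in the other 7 hens, and MSTRG.26632.2, which overlaps it on the opposite strand, had 2632 in JH68 and 720 to 969 elsewhere. NONGGAT002951.2 on chromosome 15 had 126 fragments in the long-DF hen JH14 and 5 to 11 in the others. NONGGAT014414.1 on chromosome 20 had 122 fragments in the long-DF hen JH95 and 1 in every other JH hen. It was not confined to JH95, with 334, 143 and 1 fragments in long-DF JF hens and 2, 0 and 1 in short-DF JF hens. Each of these lncRNAs sets a JH group mean by 1 hen.

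The JF hens gave a comparison of the same DF groups in other birds. Within JF hens, 4 of the 7004 lncRNAs passed the thresholds (0.0571%) and 240 had an unadjusted p under 0.05 (3.43%). Of the 243 lncRNAs at p under 0.05 in JH hens, 107 had a JF fold change of the same sign, which is 44.0% against 46.2% of all lncRNAs tested. Of the 243, 12 also had a p under 0.05 in JF hens in the same direction and 11 in the opposite direction. In the test of the difference itself, which is the interaction of prefix and DF, the adjusted p reached 0.05 for 0 lncRNAs in edgeR, 8 in DESeq2 and 7 in limma. At an unadjusted p under 0.05 it gave 300 in edgeR (4.28%).

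NONGGAT008832.2 had 0, 50 and 50 fragments in the long-DF JF hens and 47, 0 and 0 in the short-DF JF hens. Present or absent there too, it did not follow the DF groups (log2 fold change 0.94, adjusted p = 1), and the interaction had an adjusted p of 0.9999. NONGGAT000404.2 had 0 fragments in the 3 long-DF JF hens and 12, 0 and 4 in the short-DF ones, and NONGGAT002534.2 had 1, 1 and 2 against 1, 17 and 1. MSTRG.18356.18 and NONGGAT007928.2 had 0 fragments in all 6 JF hens. In none of these 5 lncRNAs did the JF hens separate by DF group in the direction of the JH hens.

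NONGGAT003266.2 had the smallest p of the interaction (adjusted p = 0.0541). Its fragments were 27, 29 and 18 in long-DF and 13, 15 and 14 in short-DF JF hens. The fold change was 0.73 on the log2 scale there (adjusted p = 1) and -2.33 in JH hens. The DF groups did not overlap in either set of hens, and the direction was opposite. MSTRG.8067.1, also on chromosome 18, had 96, 79 and 50 fragments in long-DF against 49, 34 and 41 in short-DF JF hens, again opposite to the JH hens (interaction, adjusted p = 0.524).

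**Figure D5:**
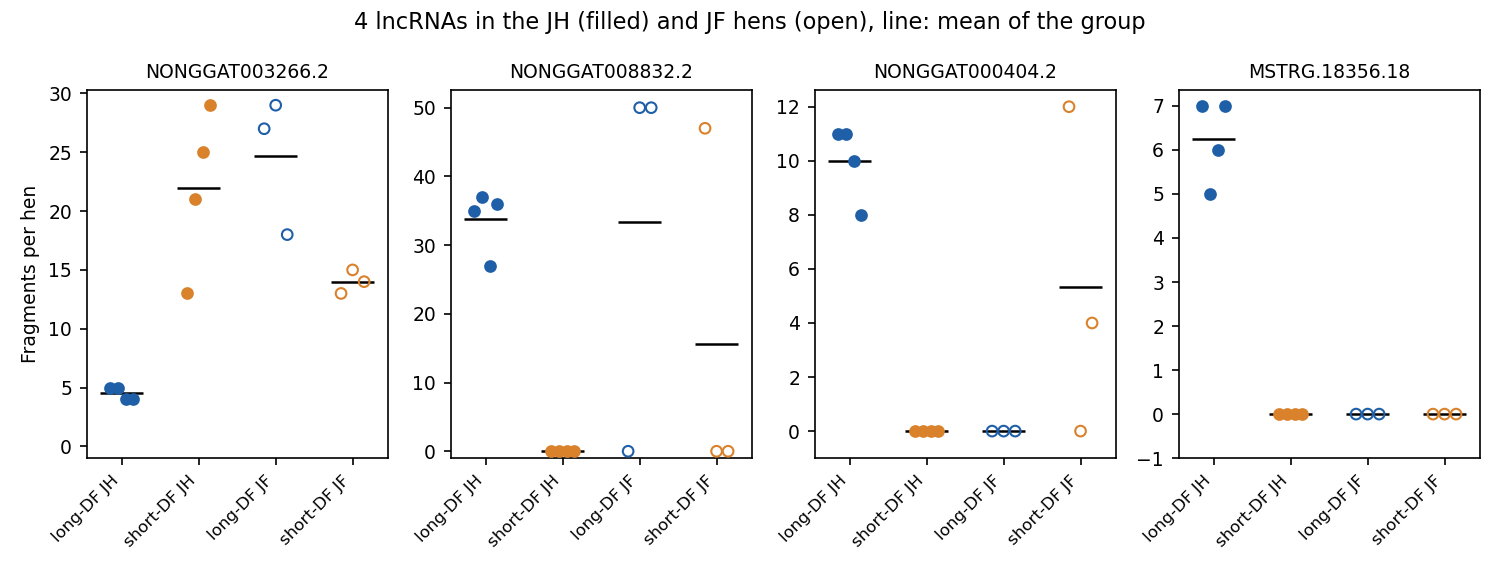
Fragments per hen of 4 lncRNAs in the 4 long-DF and 4 short-DF JH hens (filled) and the 3 long-DF and 3 short-DF JF hens (open), with the mean of each group as a line. NONGGAT003266.2 is at 4 to 5 in long-DF JH hens and 18 to 29 in long-DF JF hens; MSTRG.18356.18 is at 0 in all but the long-DF JH hens.

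By kind, the known lncRNAs had 100 higher and 62 lower in long-DF JH hens at an unadjusted p under 0.05 (3.28% of 4942), with a median log2 fold change of -0.01. The unknown lncRNAs had 47 higher and 34 lower (3.93% of 2062), with a median of -0.01. Among the unknown, 59 of 1474 intergenic, 14 of 437 antisense and 8 of 151 intronic lncRNAs were at that p, with medians of 0.00, -0.04 and 0.08. On-off lncRNAs were 5.38% of the unknown and 0.992% of the known. On the Z chromosome 4 of 299 lncRNAs (1.34%), 2 in each direction, were at that p, on chromosomes 1 to 5 106 of 3046 (3.48%), and on chromosome 16, which holds the major histocompatibility complex of chicken, 0 of 12. The medians of these 3 sets were -0.03, 0.02 and 0.09. Against 3.47% and a median of -0.01 over all lncRNAs tested, the shares of these sets are given as a description only.

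Unknown lncRNAs antisense to or within a gene that the annotation names numbered 384, of which 8 were higher and 3 lower in long-DF JH hens at an unadjusted p under 0.05 (2.86%, median log2 fold change -0.02). None had an adjusted p of at most 0.05. Besides MSTRG.10701.1 at EMILIN2, 3 of them are given here, chosen after their values were seen and all at genes linked to cilia. Smaller p than theirs were seen for MSTRG.4466.1 at MEF2A and MSTRG.12943.1 at FLI1, with at most 4 fragments in any JH hen. The rest were at BUD13, SLC47A1, FAM65C, FAR2 and DIP2B, so the choice shows no shared theme. Best covered was MSTRG.29075.1 at DIP2B, with 159, 174, 180 and 165 against 187, 246, 196 and 208 fragments (log2 fold change -0.34, SE 0.15). MSTRG.7248.1 (chr15:8752725-8759896), antisense to an exon of RSPH14, a gene of the radial spoke of motile cilia, had 23, 26, 28 and 21 fragments in long-DF and 0, 8, 10 and 7 in short-DF JH hens (log2 fold change 1.91, SE 0.65, adjusted p = 0.989). MSTRG.22442.1 (chr8:18524391-18544387), antisense to an exon of CFAP57, which encodes a protein of cilia and flagella, had 54, 62, 37 and 47 against 44, 33, 21 and 25 fragments (log2 fold change 0.65, SE 0.27, adjusted p = 0.989). MSTRG.4688.1 (chr11:754882-757658), antisense to an exon of ARL2BP, which encodes a protein that binds the small GTPase ARL2 and is also needed for cilia, went the other way, with 17, 18, 10 and 12 against 20, 30, 24 and 15 fragments (log2 fold change -0.68, SE 0.26, adjusted p = 0.989). The scaled counts of the DF groups did not overlap for the lncRNAs at RSPH14 and ARL2BP and did for the one at CFAP57.

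Genes of the oviduct, of sperm storage or among the study's predicted targets could be followed only where an assembled lncRNA carries the gene's name. This held for CLDN1, PRLR, TGFB2 and SOX2, of which the study predicted CLDN1 and SOX2 as targets by co-expression. By qPCR the study reports SOX2 itself as higher in long-DF than in short-DF hens. The values here are of lncRNAs at these genes and not of the genes. Of 9 lncRNAs at these genes, 7 were tested and none had an unadjusted p under 0.05 (median log2 fold change 0.30). CLDN1 encodes a claudin of tight junctions, and the antisense MSTRG.23167.2 (chr9:13427008-13428088) had 1640 to 2572 fragments in the long-DF group and 1733 to 2312 in the short-DF group (log2 fold change 0.07, SE 0.19). PRLR encodes the prolactin receptor, and MSTRG.29422.1 (Z chromosome, 10480521 to 10506963), antisense to its exons, had 82, 120, 80 and 99 fragments against 125, 116, 72 and 70 (log2 fold change -0.04, SE 0.22). All 8 JH hens had it, while the 6 JF hens had 0 or 1 fragment. MSTRG.29422.2 and MSTRG.29422.3, also at PRLR, had log2 fold changes of 0.59 (SE 0.41) and 0.30 (SE 0.29). For SOX2, a transcription factor of progenitor cells, MSTRG.23300.2 had 12 to 29 against 15 to 22 fragments (log2 fold change 0.30, SE 0.34). MSTRG.23300.4, also antisense to SOX2, had 15, 13, 7 and 0 against 0, 16, 19 and 10 fragments (log2 fold change -0.43, SE 0.98). MSTRG.14860.1, within an intron of the growth factor gene TGFB2, had 10, 10, 1 and 6 against 1, 8, 2 and 1 fragments (log2 fold change 1.12, SE 0.71, adjusted p = 0.989).

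The study singled out 8 key lncRNAs from comparisons of all its hens, and they were followed here within the JH hens. Of these, 3 were tested, and no difference between the DF groups of JH hens was shown for any. The standard errors were wide, at 1.16, 1.55 and 0.82 on the log2 scale. By qPCR, the study reports MSTRG.2982.4 and MSTRG.8138.1 as higher and MSTRG.28487.2 and MSTRG.17455.2 as lower in long-DF hens. That assay used replicates the study calls independent, and its values are not given by prefix. The qPCR primers of the 3 tested lncRNAs are shown, forward and reverse and each from 5′ to 3′. Each pair defines which stretch of the lncRNA the study's own assay reads.
MSTRG.2982.4 forward: ggtcccctctatagtaacgagt
MSTRG.2982.4 reverse: ttccgttcttgatcatctggga
MSTRG.28487.2 forward: ccctttgcacactcacaccct
MSTRG.28487.2 reverse: gagcgcaatgccttcgtctgc
MSTRG.8138.1 forward: agcttgtattcatagggcaca
MSTRG.8138.1 reverse: ttccaagcctgaactatttga

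MSTRG.2982.4, an intergenic lncRNA at chr1:140700907-140714981, had 1166, 1, 1614 and 674 fragments in long-DF and 612, 1401, 436 and 1184 in short-DF JH hens. It was abundant in every JH hen but JH25, and the groups did not differ beyond their spread (log2 fold change -0.04, SE 1.16, adjusted p = 0.989). In the JF hens it had at most 12 fragments. MSTRG.28487.2, on an unplaced sequence, had 3, 1, 2 and 60 fragments in long-DF and 8, 5, 7 and 180 in short-DF JH hens, and 1 hen in each group, JH104 and JH130, held most of them (log2 fold change -1.66, SE 1.55, adjusted p = 0.989). MSTRG.8138.1, at chr18:4936949-4938607, had 67, 6, 49 and 56 fragments against 68, 10, 53 and 12 (log2 fold change 0.27, SE 0.82, adjusted p = 0.989). High and low hens occurred in both DF groups.

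The other 5 key lncRNAs did not reach the FPKM minimum in 4 JH hens. MSTRG.23167.4 and MSTRG.24725.1 had 0 fragments in all 8 JH hens, and MSTRG.20950.12 had 1 fragment, in JH49. MSTRG.14719.6 had 112 and 122 fragments in the long-DF hens JH14 and JH95, 55 in the short-DF hen JH68 and 0 in the others. At 0 or 1 fragment in total, a difference was not detectable at this depth for MSTRG.23167.4, MSTRG.24725.1 and MSTRG.20950.12. MSTRG.17455.2 had 0, 0, 0 and 1 fragments in long-DF and 4, 4, 2 and 1 in short-DF JH hens. The ratio of its summed counts, scaled for library size, was 11.3 in favour of the short-DF hens, with a 95% exact interval of 1.65 to 488 that covers counting error only. Summed over the 4 lncRNAs of its locus, the counts were 5, 0, 2 and 1 against 4, 4, 11 and 12, which overlapped (log2 fold change -1.97, SE 0.72, adjusted p = 0.988).

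Of the 20 lncRNAs that the study tabulated at the top of its comparison of all hens, 11 were tested in the JH hens and none had an unadjusted p under 0.05. Of the longer list of lncRNAs that passed its thresholds, 110 were tested, and 6 were higher and 7 lower in long-DF JH hens at that p, which is 11.8% against 3.47% of all tested. The study chose both lists on libraries that include these 8, so neither is independent evidence of a direction. The median log2 fold change of the 110 was -0.04.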

How the data were processed

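The authors prepared stranded total RNA libraries, aligned the reads to Galgal4 by TopHat and built transcripts by StringTie. Gffcompare was used to separate known from new transcripts, and filters on size, exons, open reading frames and protein-coding potential left the lncRNAs. The deposited counts are raw fragments per lncRNA and hen, and the deposited FPKM values were scaled by the authors for transcript length and for the total of the library. The counting tool and the meaning of JH and JF are not given in the sources used here.

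Counts of the 8 JH hens were tested with edgeR 4.0.16 in R 4.3.3 (TMM scaling, quasi-likelihood F test, Benjamini-Hochberg adjustment over 7004 lncRNAs). A standard error is the size of the log2 fold change over the square root of its F value. The test was tried on simulated counts, but the outcome is not given here and no result rests on it. Interactions used all 14 hens. Alternatives were limma 3.58.1, DESeq2 1.42.0, other edgeR tests, scalings, filters and pseudocounts, counts summed over loci, and leaving out each hen. Other computations used Python 3.11.15, with scipy 1.17.1. Named lncRNAs were those called, in each direction the 12 of smallest p, the 8 key lncRNAs, the 5 most abundant, 1 high in each hen alone, and partners of the called lncRNA. Hens, lists and rules were chosen with earlier results of these data known. Replicates are separate hens. Fold changes against a group at 0 are lower bounds at 3 fragments per hen. No lncRNA in the table is on chromosome W. No genome of this build was used, so lncRNAs near genes were found by name only.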

Additional observations from a re-analysis of the deposited data

Results flagged for a closer look

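In 22 of 85 groups of 4 JH hens, the highest or lowest hen stood apart from the other 3 by more of the range than the 95% critical value of Dixon's test. Chance gives about 1 in 20 groups when groups are not chosen for such a gap. Groups with 3 hens at 0 are always among those flagged, and lncRNAs named for being high in 1 hen were chosen for it. The 22 can thus not be set against that rate. The values are FPKM unless stated.

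In 8 lncRNAs, 1 hen had fragments while the other 3 of its DF group had none. MSTRG.27458.2 had 2668 in the long-DF hen JH25. MSTRG.14719.6 had 2.18 in JH68. Values under 1 were seen for NONGGAT003289.2 (0.0739 in JH68), NONGGAT014804.1 (0.256 in JH130), NONGGAT007796.2 (0.504 in JH49), MSTRG.20950.12 (0.237 in JH49), MSTRG.24865.5 (0.190 in JH104) and MSTRG.17455.2 (0.0770 in JH104). Each of these values under 1 came from only 1 or 2 fragments, below the 3 fragments that a count of 0 allows.

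MSTRG.28487.2 had 27.5 in the long-DF hen JH104 against 0.448 to 1.54 in the rest of its group, and it had 91.7 in JH130, a short-DF hen, against 2.11 to 4.33. JH68 stood apart in its fragments on lncRNAs, 281892 against 213896 to 222238 in the other short-DF hens. It also did so for MSTRG.2200.16, with 2790 against 2040 to 2150, and for MSTRG.26632.2, with 1455 against 511 to 580.

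The other 7 lncRNAs had been named for being high in 1 JH hen. NONGGAT002951.2 had 54.99 in JH14 against 3.04 to 4.31, and NONGGAT014414.1 had 50.2 in JH95 against 0.398 to 0.458. NONGGAT003409.2 had 3.51 in JH25 against 0.0895 to 0.239, and among short-DF hens 0.188 in JH49 against 0.0734 to 0.0885. NONGGAT002487.2 had 18.5 in JH49 against 0.117 to 0.142, and among long-DF hens 0 in JH104 against 0.125 to 0.143. In JF hens NONGGAT002487.2 was high throughout, with 149 to 220 fragments in the long-DF and 161 to 194 in the short-DF group. MSTRG.26631.1 had 869.9 in JH68 against 81.5 to 86.7, NONGGAT008837.2 had 8.28 in JH109 against 0.154 to 0.191 and MSTRG.26507.2 had 27.6 in JH130 against 0.574 to 1.34.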

How the results depend on the processing

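The number of lncRNAs called between the DF groups of JH hens depended on the test. Against 1 in the reported analysis it was 9 with the likelihood ratio test, 7 with edgeR's exact test, 7 with DESeq2, 6 with limma-voom and 10, 9 and 2 with limma on log2(FPKM + 0.1), log2(FPKM + 0.01) and log2(FPKM + 1). In each of these tests most calls were lncRNAs that met the FPKM minimum through 1 DF group alone, so their groups had to differ. The exceptions were NONGGAT002534.2, NONGGAT003266.2, NONGGAT006949.2 and MSTRG.16830.1. The larger counts are thus no separate support for differences between the DF groups. It was 2 with an FPKM of at least 0.5 in 4 hens, 2 with filterByExpr, and 0 with counts summed over overlapping lncRNAs. It was 1 with median-ratio size factors, library totals, robust estimation and no FPKM filter. It was also 1 with the FPKM minimum in all 8 hens, where NONGGAT008832.2 could not be tested and the call was NONGGAT002534.2. With all 14 hens in the fit and the JH groups compared, it was again 1, and the call was NONGGAT003266.2. NONGGAT008832.2 was called in 13 of these alternatives, and its adjusted p ranged from 5.6e-21 (likelihood ratio test) to 0.990 (all 14 hens). That of NONGGAT003266.2 ranged from 0.00145 to 0.728. Leaving out 1 hen, without applying the filter anew, gave 0 to 2 calls, with 0 for each hen but JH130 and, without JH130, NONGGAT008832.2 and NONGGAT006949.2. The interaction of prefix and DF gave 8 lncRNAs in DESeq2 and 7 in limma on log2(FPKM + 0.1), against 0 in edgeR.

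Of 2365 lncRNAs with a mean of at least 10 fragments, 80 did not overlap between the DF groups. This share is close to that of all lncRNAs tested, 210 of 7004 (3%). The difference of 215 detected lncRNAs stayed positive and short of an exact permutation p of 0.05 under each alternative run, from 30.5 at an FPKM of at least 1 to 288 without JH104. Over 23 alternatives, the 39 named lncRNAs gave 849 values, of which 781 kept direction and side of the threshold, 8 lost a call, 43 gained one and 17 changed sign. MSTRG.27458.1 changed from -0.17 on the log2 scale to 0.51 in limma-voom, 0.38 in limma on log2(FPKM + 0.1), 0.38 with 0.01 added and 0.37 with 1 added, and ran from -0.61 to 0.69 when 1 hen was left out. In the same way MSTRG.28487.2 ran from -4.76 (without JH104) to 1.37 (without JH130), MSTRG.2982.4 from -0.55 to 0.36, MSTRG.8138.1 from -0.077 to 0.77, NONGGAT014414.1 from -0.058 (without JH95) to 5.22, NONGGAT008837.2 from -3.03 to 1.06 (without JH109) and MSTRG.26507.2 from -3.49 to 0.0030 (without JH130). The cause was not tested.

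No paired analysis was possible because each hen has its own number and no number occurs in both DF groups. At a median of 4.5 fragments per hen, differences of most lncRNAs rest on few fragments.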
